A study of Mus musculus with 48 samples.

Results

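The data describe how the RNA of *Nrde2*-KO mouse embryonic stem cells (mESCs) changed when protein synthesis was stopped with cycloheximide (CHX). Of the 55335 genes of the deposited RNA-seq table, 15338 were tested, namely all those with a mean of at least 0.5 CPM (reads of a gene scaled to a fixed library total) over the 4 *Nrde2*-KO libraries of this experiment. The minimum fell between *Plin5*, with a mean of 0.5 CPM, and *Gm15743*, just below it. The rule used the mean level of a gene over both groups. A gene nearly absent without CHX could thus pass through its level with CHX, or the reverse. All cells were 129-C57BL/6 hybrid mESCs of a line in which *Nrde2* is floxed and an inducible Cre recombinase is present, grown with LIF and inhibitors of MEK and GSK-3. *Nrde2*-KO cells were that line after 4 d in 100 nM 4-hydroxytamoxifen (4OHT), which activates the recombinase, and WT cells were the same line without 4OHT, so the genotypes also differ by the 4OHT itself. For the CHX groups the drug was present at 0.1 mg/mL for 4 h, and the other groups are called untreated. CHX was dissolved in DMSO, and the sources used here do not give whether untreated cells received the solvent. Each of the 4 groups (*Nrde2*-KO and WT, untreated and CHX) had 2 libraries, which the labels number as replicates. The labels do not say whether these came from separate cultures, so every p-value measures the spread between these libraries, which may be technical.

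CHX stalls elongating ribosomes. An mRNA with a premature stop codon is normally destroyed by nonsense-mediated decay (NMD), which needs a translating ribosome, so such transcripts are known to accumulate in CHX. Other short-lived mRNAs, such as those of immediate early genes with AU-rich elements in the 3′ UTR and of the replication-dependent histones, are also known to accumulate when translation is blocked. NRDE2 is a nuclear protein that binds the RNA helicase MTREX and, with CCDC174, helps to splice introns whose 5′ splice sites are weak, and mis-spliced transcripts often carry premature stop codons.

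The *Nrde2*-KO libraries held between 28683644 and 33170204 reads in genes, and the 4 WT libraries between 31944163 and 35307244. Replicates correlated at 0.994 (untreated) and 0.997 (CHX) across genes in *Nrde2*-KO cells, on the log2 scale. The 8 mESC markers checked, among them *Pou5f1*, *Sox2* and *Esrrb*, were all expressed, and their summed level was 5020 and 5259 normalized CPM in untreated and 3342 and 3284 in CHX-treated *Nrde2*-KO libraries. The 7 primitive endoderm markers summed to between 17.3 and 28.8, the 5 trophectoderm markers to between 19.9 and 22.7, and the 6 fibroblast markers to between 1.14 and 2.52, with 0 of these markers at 0 in all 4 libraries. Whether other cell types took part in any change was not tested, and in bulk RNA fewer cells of a type and less RNA per cell cannot be told apart.

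The conditional allele has loxP sites in introns 4 and 6 of *Nrde2*, by the study's list of targeting constructs, so that exons 5 (chr12:100143739-100144189 of GRCm38) and 6 (chr12:100141893-100142298, minus strand, both coding) are removed. In the GENCODE M21 transcript with 14 exons, these exons hold 857 bases, which is not a multiple of 3. If exon 4 is joined to exon 7, translation meets a stop codon after 220 codons, in place of the annotated 1172, and 1873 bases before the last exon junction. The predicted junction is shown because *Nrde2* is the first gene described, but the counts per gene do not measure it. It starts 24 bases before the end of exon 4, and the capitals mark the new stop codon, 79 bases after the junction:

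*Nrde2* exon 4 to exon 7: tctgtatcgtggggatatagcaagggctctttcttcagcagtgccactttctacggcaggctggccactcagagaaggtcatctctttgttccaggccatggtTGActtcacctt

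*Nrde2* was itself among the genes whose RNA rose. Its level was 20.3 and 20.3 normalized CPM (CPM divided by a scaling factor for each library) in the untreated *Nrde2*-KO libraries and 258 and 250 in the CHX libraries, a 12.5-fold difference of the means. The log2 fold change, computed here and below after adding 0.25 to each value, was 3.63 ± 0.07 (SE, n = 2 per group, adjusted p = 7.3e-11 by limma). In WT cells the same gene stood at 55.2 and 53.7 untreated and at 248 and 227 with CHX, a log2 fold change of 2.12 ± 0.07. The knockout was thus 1.41 below WT on the log2 scale without CHX (adjusted p = 3.8e-07) and 0.10 above it with CHX (adjusted p = 0.31), and the difference between the responses was 1.51 ± 0.10 (adjusted p = 1.1e-04). The count per gene includes the exons outside the deletion, so these levels do not check the deletion itself and do not say which transcripts were present. Of the partner genes, the log2 value of *Ccdc174* differed by 0.74 (adjusted p = 1.7e-05) and that of *Mtrex* by −0.14 (adjusted p = 0.11) between CHX and untreated *Nrde2*-KO cells, so neither passed the threshold on size given below.

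Across all genes, CHX changed 2180 of the 15338 tested by more than 2-fold (1 on the log2 scale) at an adjusted p below 0.01, the thresholds that "rose" and "fell" stand for below. There were 1594 that rose (10.4%) and 586 that fell (3.82%), so that 73.1% of the changes were increases. Of these, 79 rose and 2 fell by more than 8-fold on the log2 scale. The value added before taking logs makes fold changes of low genes smaller on this scale. The ratio of the means passed 8-fold for further genes in both directions. *Zfp128* rose 8.04-fold by this ratio (log2 2.88), and *Gm28373* and *Gm43360* fell 15.5-fold and 14.0-fold (log2 −2.95 and −2.50). The median log2 fold change over all genes was −0.01 after scaling. With the CPM as deposited, which have no scaling beyond the total of each library, this median was 0.20, 2254 genes rose and 332 fell, and 87.2% of the changes were increases. Counts for groups of genes below are to be read against the 10.4 and 3.82% of all genes.

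**Figure D1:**
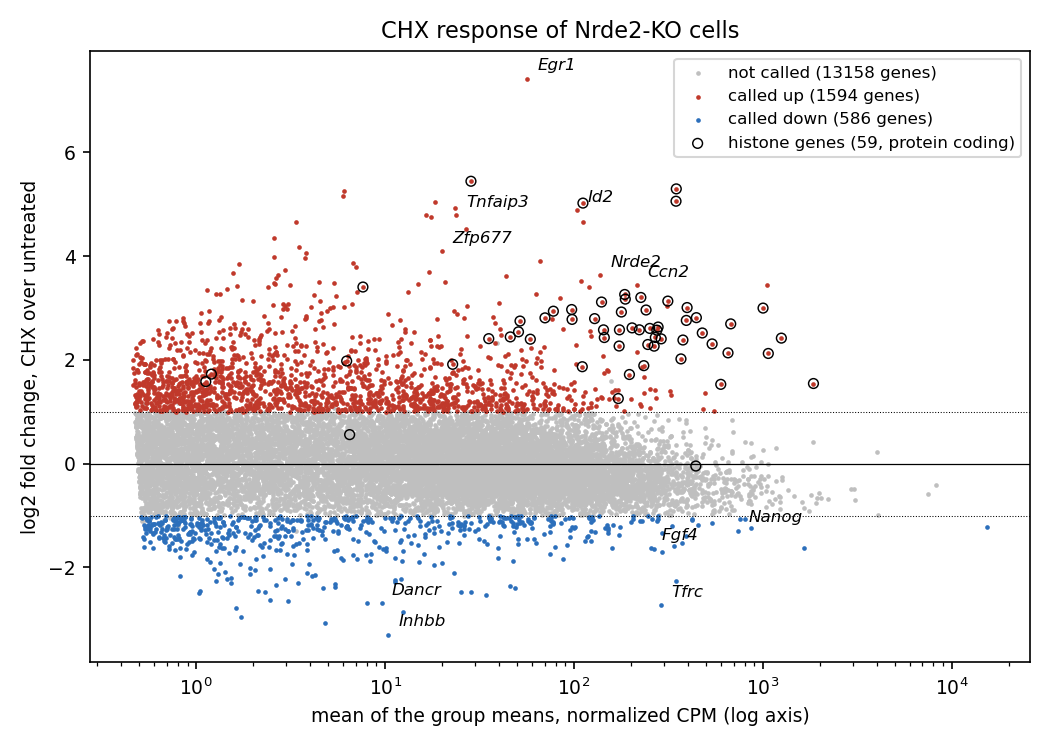
Log2 fold change with CHX in *Nrde2*-KO cells (vertical axis) against the mean of the untreated and CHX levels in normalized CPM (horizontal log axis), 1 point per gene, with protein-coding histone genes circled. The 1594 genes that rose reach a log2 fold change of 7.43 (*Egr1*), the 586 that fell reach −3.29 (*Inhbb*), and nearly all circled genes lie above 1.

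Immediate early transcription factors held the largest increase of all on the log2 scale. *Egr1*, a zinc finger factor induced by growth signals, was at 0.286 and 0.545 normalized CPM without and at 127 and 98.5 with CHX, a log2 fold change of 7.43 ± 0.22 (adjusted p = 3.2e-09). *Fos* rose from 2.03 and 1.89 to 62.1 and 41.3, by 4.52 ± 0.18, and *Jun*, its partner in AP-1, rose from 7.30 and 5.05 to 107 and 55.7, by 3.62 ± 0.28. The CHX libraries of *Jun* lay far apart, but both were above both untreated libraries. The inhibitor of DNA binding genes, which block bHLH factors, rose together, with log2 fold changes of 4.89 (*Id2*), 3.91 (*Id1*) and 3.52 (*Id3*). Of the 28 tested members of the list of immediate early transcription factors, 13 rose and 2 fell, against 10.4 and 3.82% of all genes. The median was 0.90. *Nr4a1*, an orphan nuclear receptor, and *Sik1*, a kinase grouped with it because cAMP signalling induces it, were the 2 that fell, by 1.90 and 1.84. *Myc* (0.60), *Cebpb* (0.27), *Srf* (0.12) and *Fosl1* (−0.06) did not pass. WT cells gave a median of 0.91 on the same list.

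Of 36 feedback and signalling genes of the immediate early class, 13 rose and 1 fell, against 10.4 and 3.82% of all genes. The median was 0.24. *Gadd45g*, a stress sensor that acts on p38 and JNK kinases, rose from 1.11 and 0.631 to 38.3 and 33.9 (log2 5.05 ± 0.26). The secreted matricellular genes *Ccn2* and *Ccn1* rose by 3.44 ± 0.08 and 3.20 ± 0.12. *Ccn2* stood at 35.3 and 37.0 untreated and at 417 and 375 with CHX. *Ankrd1*, with *Ccn1* and *Ccn2* a well-known target of YAP, rose by 5.17, from 0.00 and 0.201 to 11.1 and 12.5 normalized CPM, so its untreated level rests on few reads. Dual-specificity phosphatases of MAP kinases rose in 5 cases: *Dusp8* (4.07), *Dusp6* (2.33), *Dusp4* (2.17), *Dusp1* (1.93) and *Dusp5* (1.83). The kinase gene *Plk3* fell, by 1.10.

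Among the NF-kB target genes, 8 of 19 rose and 0 fell, against 10.4 and 3.82% of all genes. The median was 0.67. *Tnfaip3*, which encodes the NF-kB inhibitor A20, rose from 1.62 and 1.23 to 42.2 and 49.7 normalized CPM (log2 4.79 ± 0.19), and *Nfkbia*, the gene of the inhibitor IκBα, rose by 1.65 ± 0.09. *Tnfaip2* (1.83), *Csf1* (1.66) and *Icam1* (1.18) rose as well. The other 7 genes of this list, chemokines and cytokines such as *Cxcl2*, *Il6* and *Tnf*, were below the minimum level and had at most 23 reads in any of the 4 libraries. *Ptgs2*, the inducible cyclooxygenase, which was on none of the lists, rose by 4.92 ± 0.20, from 1.33 and 1.15 to 52.5 and 38.3.

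Many of these mRNAs carry AU-rich elements, so the 7-base core TATTTAT was counted in the GENCODE M21 3′ UTRs, on the transcript strand. Stretches around the first such core (capitals) of 3 genes are shown, because AU-rich elements are the known instability signal of this class of mRNA:

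*Fos*: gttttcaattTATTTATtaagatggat

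*Jun*: tgtgcaTATTTATaatagcgttc

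*Ptgs2*: tgaccaTATTTATttatttatgt

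The 3′ UTR of *Ptgs2* holds 6 such cores, overlapping ones counted, against 2 in *Fos* and 1 in *Jun*. Among protein-coding genes other than histones, 33.0% of the 1229 that rose and had an annotated 3′ UTR contained the core, 76 of the 330 that fell, and 27.3% of all 13145 tested. A longer 3′ UTR is more likely to hold it, and the median lengths were 1022, 982 and 947 bases. For 3′ UTRs of 1979 bases or more the shares were 58.7% (rose), 49.5% (fell) and 54.2% (all), and for those of 948 to 1976 bases they were 35.7, 26.7 and 32.4%. From 380 to 947 bases they were 26.8, 7.69 and 17.2%, and below that between 5.15 and 5.47%. The lists above held it more often, in 16 of 28 immediate early transcription factors, 22 of 36 feedback genes and 8 of 19 NF-kB targets. Of the 16 transcription factor genes with the core 7 rose, of the 22 feedback genes 5, and of the 8 NF-kB targets 6. Of all members that rose, 7 of 13, 5 of 13 and 6 of 8 held it. That share was below that of the whole list for transcription factors and feedback genes, and above it for NF-kB targets. *Dusp6* rose and held 0 cores. The lists were chosen from knowledge of such genes, so these shares describe the lists. Genes that rose had a median of 8 exons, those that fell 5, and all tested protein-coding genes 9.

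Replication-dependent histone genes rose almost without exception. Of 61 tested, 59 rose and 0 fell, with a median log2 fold change of 2.58, against −0.01 over all genes and 10.4% of all genes rising. *Hist1h2aa* and *Hist1h2ba*, neighbouring genes of the testis-enriched histones TH2A and TH2B, were among the largest increases. *Hist1h2ba* (chr13:23933773-23934156, minus strand) went from 21.6 and 18.4 to 685 and 663 (log2 5.06 ± 0.08, adjusted p = 2.9e-11), and *Hist1h2aa* (chr13:23934462-23934851, plus strand) from 20.8 and 13.9 to 693 and 665 (log2 5.30 ± 0.14). The genes of the Hist3 cluster on chromosome 11, *Hist3h2a* (5.45), *Hist3h2ba* (5.02) and *Hist3h2bb-ps* (4.80), rose by similar amounts, the last annotated as a pseudogene. *Hist1h1e*, a linker histone gene, rose from 257 and 192 to 1780.0 and 1781 normalized CPM (log2 3.00 ± 0.11). The 2 exceptions were *Hist2h2ab* at 0.56 and the linker histone gene *Hist1h1b* at −0.04.

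The untreated libraries differed in their histone levels. Summed over the 61 genes, they held 7038 (replicate 1) and 4899 normalized CPM (replicate 2), and the CHX libraries 29360 and 27945. The untreated replicate 1 was above replicate 2 in 55 of the genes, and by more than 1.5 times in 34. The median log2 fold change was 3.09 without replicate 1 and 2.07 without replicate 2, and between 57 and 59 of the genes rose in either case. In WT cells the median was 2.08. Histone genes are near-copies of each other and reads that map to several places were not counted, so the level of each gene is uncertain.

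Histone mRNAs of this class end in a conserved stem-loop in place of a poly(A) tail. A search of the annotated 3′ UTRs for GGCTCTTTTNAGAGCC, GGCCCTTTTNAGGGCC or GGTCCTTTTNAGGACC on the transcript strand found it in 37 of the 46 tested histone genes that have an annotated 3′ UTR, and all 37 rose, as did the other 9. Of 13149 other tested genes with a 3′ UTR, 2 contained it (0.0152%). There were 6 versions, printed with the arms of the stem in capitals and the loop in lower case, since they are what these genes share beside their coding sequence:

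found in 20 genes: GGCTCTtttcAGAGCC

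found in 6 genes: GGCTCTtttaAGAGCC

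found in 6 genes: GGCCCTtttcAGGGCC

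found in 2 genes: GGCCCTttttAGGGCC

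found in 2 genes: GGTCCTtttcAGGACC

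found in 1 gene: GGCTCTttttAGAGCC

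The median log2 fold changes of the genes with each version lay between 2.33 and 2.91. The first 3 versions, with medians of 2.58, 2.48 and 2.33, covered 32 of the 37 genes.

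Zinc finger genes were the longest list examined. Of 366 tested genes named Zfp with a number, many of which encode KRAB repressors of transposons, 116 rose and 2 fell, against 10.4 and 3.82% of all genes, and the median was 0.68. *Zfp677* rose from 1.78 and 2.18 to 37.1 and 38.6 normalized CPM (log2 4.10 ± 0.14), *Zfp128* by 2.88 and *Zfp54* by 2.80. The 2 that fell, chosen after their values were seen, were *Zfp296*, a gene expressed in pluripotent cells (−2.40), and *Zfp352*, a gene of the 2-cell-stage list (−1.30). WT cells gave a median of 0.69 for the same genes, and 200 of the 366 had a larger log2 fold change in *Nrde2*-KO than in WT cells.

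**Figure D2:**
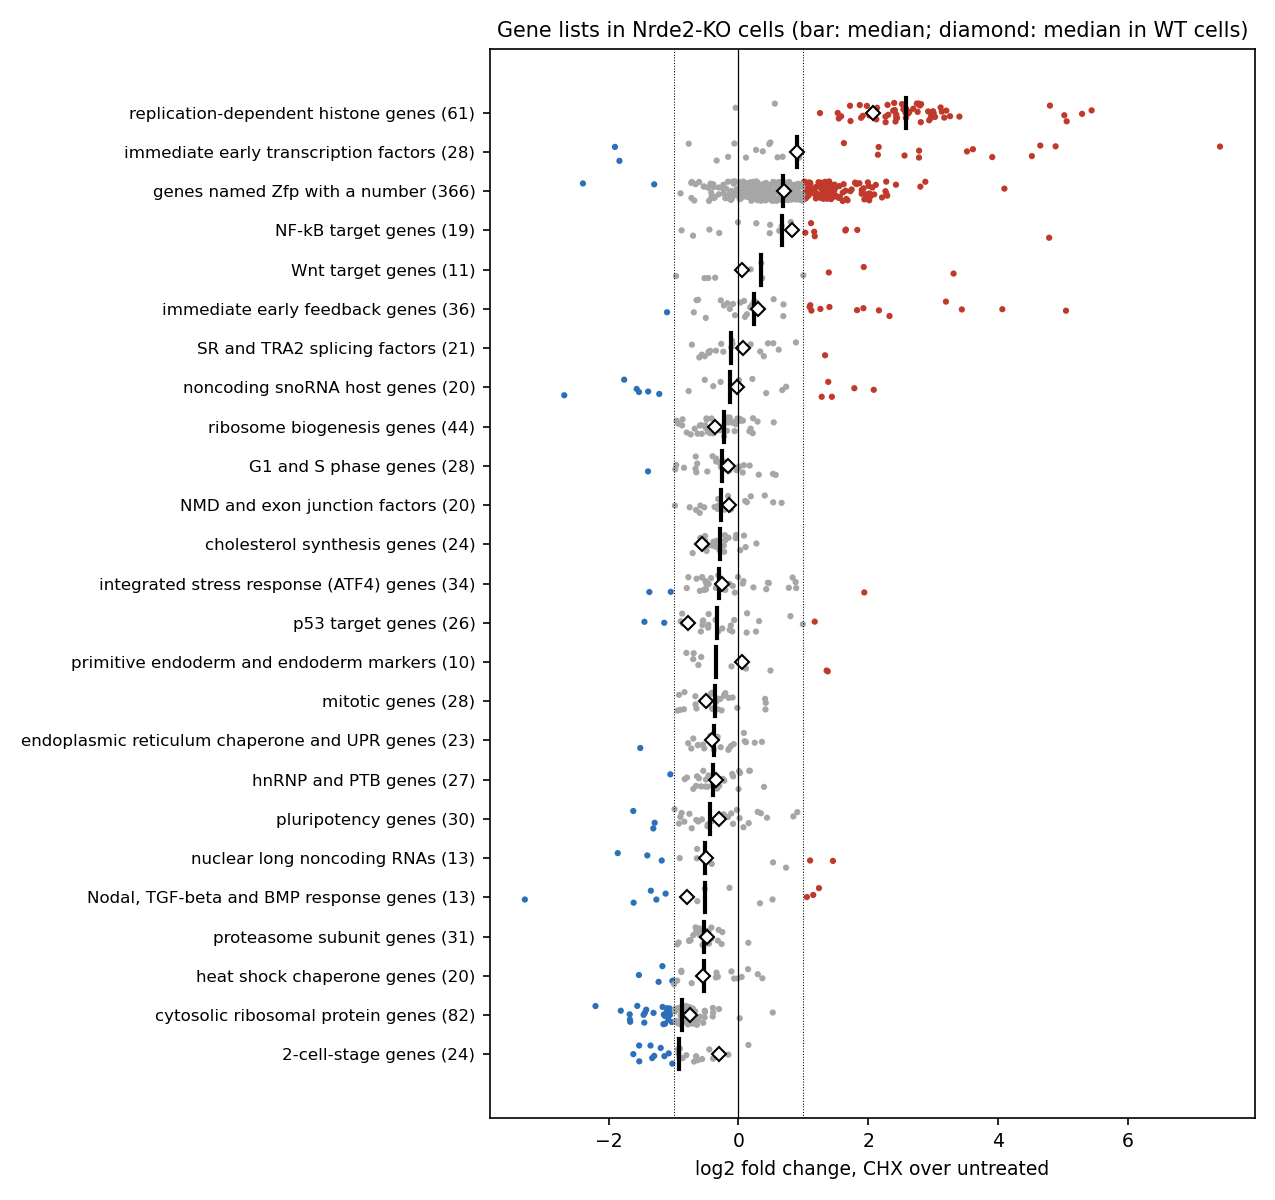
Log2 fold changes with CHX of the tested members of gene lists with at least 10 tested members (number in parentheses) in *Nrde2*-KO cells, 1 point per gene, red for genes that rose, blue for genes that fell and grey for the rest. Black bars are medians in *Nrde2*-KO cells and open diamonds medians in WT cells; the histone list is highest at 2.58 and the 2-cell-stage list lowest at −0.92.

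The decreases were smaller and held fewer well-known genes. *Inhbb*, which encodes a subunit of activin, fell most on the log2 scale, from 20.0 and 18.2 to 2.00 and 1.48 normalized CPM (log2 −3.29 ± 0.16, adjusted p = 5.5e-08). *Tfrc*, the transferrin receptor, whose mRNA stability is controlled by iron, fell from 455 and 551 to 72.3 and 79.0 (log2 −2.72 ± 0.13). The Nodal antagonists *Lefty2* and *Lefty1* fell by 1.62 and 1.35, and 5 of the 13 genes of the Nodal, TGF-beta and BMP list fell while 3 rose. *Zc3h12a*, which encodes the mRNA-degrading enzyme Regnase-1, fell from 14.2 and 13.9 to 1.87 and 2.10 (log2 −2.68 ± 0.14). Of the 12 largest decreases among genes of at least 1 normalized CPM, the others were noncoding or unnamed: *Mir124a-1hg*, *Gm28373*, *Gm49089*, *Gm44260*, *Dancr*, *Gm37795*, *C230096K16Rik*, *AC121821.1* and *Gm43360*, with log2 fold changes between −3.06 and −2.50.

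Of 30 pluripotency genes, 3 fell (against 3.82% of all genes) and 0 rose, with a median of −0.44 and 8 above 0. *Nanog* fell from 998 and 1096 to 425 and 429 normalized CPM (log2 −1.29 ± 0.08), *Fgf4* by 1.62 and *Nr5a2* by 1.31. *Pou5f1* (−0.92) and *Tfcp2l1* (−0.90) passed the threshold on p but not on size, and *Sox2* had a positive value of 0.35. In the opposite direction, the Wnt target *Sp5* rose by 3.32 ± 0.21, from 2.57 and 1.84 to 28.9 and 19.8. Of 11 Wnt targets 3 rose, against 10.4% of all genes. Markers of other lineages moved both ways at low level. *Gata3* rose by 1.56, from 3.62 and 3.73 to 11.6 and 11.1, and *Eomes* fell by 1.62, from 14.7 and 15.9 to 4.59 and 5.03.

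Genes of the translation apparatus were lower as a group. Of 82 cytosolic ribosomal protein genes, 25 fell and 0 rose, with a median of −0.87, against 3.82% of all genes falling, and 80 of the 82 had a negative log2 fold change. *Rpl10* fell from 15.9 and 19.7 to 4.78 and 4.91 normalized CPM (log2 −1.82 ± 0.14). With the CPM as deposited the median was −0.65 and 11 of them fell. These genes have many processed pseudogenes, and only uniquely mapping reads were counted, so their levels are uncertain. Of the 7 mitochondrially encoded mRNAs tested, *mt-Nd1* and *mt-Nd2* fell, by 1.07 and 1.10, and the median was −0.75. The proteasome subunit genes, none of which passed, had a median of −0.52, with 1 of 31 above 0.

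Chaperone genes were lower too, although not as a class beyond the thresholds. *Hspa8*, the constitutive HSP70, fell from 599 and 518 to 180 and 204 (log2 −1.54 ± 0.12). Of 20 heat shock chaperone genes 5 fell, against 3.82% of all genes, with a median of −0.53. Of the endoplasmic reticulum genes only *Herpud1* passed, falling by 1.51. In the ATF4 list, 1 of 34 rose and 2 fell, against 10.4 and 3.82% of all genes. The gene that rose was *Ddit3*, which encodes the stress factor CHOP (log2 1.94 ± 0.19). The genes that fell were the amino acid transporter gene *Slc38a2* (−1.37) and *Atf5* (−1.04). *Atf4* itself had a log2 fold change of 0.83.

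The p53 targets moved little in *Nrde2*-KO cells. *Cdkn1a*, the gene of the cell cycle inhibitor p21, fell from 88.1 and 75.4 to 41.4 and 32.6 (log2 −1.14 ± 0.18), *Zmat3* fell by 1.45 and *Ddb2* rose by 1.18, the only 3 of 26 to pass. The median was −0.33, and it was −0.77 in WT cells, where 11 fell. The log2 fold change was higher in *Nrde2*-KO than in WT cells for 23 of the 26 genes, against 48.0% of all genes tested, and 4 of these differences had an adjusted p below 0.05. For the 24 genes of cholesterol synthesis, none of which passed, it was 23 genes, with medians of −0.29 (*Nrde2*-KO) and −0.56 (WT).

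Genes of the 2-cell stage, which mark a rare early-embryo-like state of mESCs, started from a higher level in *Nrde2*-KO than in WT cells. Without CHX each of the 24 tested was above WT, by between 1.39 and 4.02 on the log2 scale, and with CHX by between 1.03 and 3.74. The level minimum used only *Nrde2*-KO libraries, so members low in these cells were left out, which favours this direction. Of these 24, 10 fell and 0 rose in *Nrde2*-KO cells, against 3.82 and 10.4% of all genes. The median was −0.92. The untreated WT means were only between 0.0767 and 2.28 normalized CPM, where the 0.25 added before taking logs makes fold changes smaller, so the WT median of −0.30 with 0 falling was not read against that of *Nrde2*-KO cells. *Zscan4a*, annotated as a pseudogene of the Zscan4 family that marks this state, fell from 21.9 and 19.0 to 6.46 and 7.36 (log2 −1.53 ± 0.16). *Zfp352* fell from 4.35 and 4.53 to 1.85 and 1.48. For none of the 24 was the difference between the genotypes below an adjusted p of 0.05, and many belong to families of near-identical copies, so single levels are uncertain. The number that fell was 5 without the CHX replicate 2 and 6 with the CPM as deposited or with a pseudocount of 1.

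The remaining lists held few changes. Of 44 ribosome biogenesis genes and 28 mitotic genes 0 passed, with medians of −0.23 and −0.37. Of 28 genes of the G1 and S phases, *Orc1*, a subunit of the origin recognition complex, fell from 172 and 171 to 61.3 and 68.9 normalized CPM (log2 −1.39 ± 0.08), and the median was −0.25. Of 10 endoderm markers tested, 2 rose and 0 fell, against 10.4 and 3.82% of all genes. Their median was −0.34, with 4 above 0. *Pdgfra* and *Sox17* rose, by 1.38 and 1.36, while *Sparc*, the most abundant of them, had a log2 fold change of −0.80 (adjusted p = 2.0e-05), short of the threshold on size. Of the 8 fibroblast markers listed, 2 were tested and 0 passed. The others were below the minimum level and had at most 39 reads in any of the 4 libraries. Among these, *Col3a1* had 2 and 3 reads untreated and 39 and 27 with CHX, while the libraries of *Acta2* overlapped (13 and 4, 18 and 12).

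RNA-processing genes moved little at the level of the gene. None of the 20 NMD and exon junction complex genes passed, and their median was −0.26. Among 21 SR proteins and their kinases, *Clk4*, a kinase of SR proteins, rose from 37.4 and 42.9 to 104 and 98.9 (log2 1.34 ± 0.08), and it was the only one. Among 27 hnRNP genes, *Hnrnpa3* fell by 1.05. The values are sums over all transcripts of a gene, in which a minor NMD-sensitive form is not visible.

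Noncoding hosts of small nucleolar RNAs (snoRNAs), whose spliced transcripts include known NMD substrates, split into opposite groups. Of 20 tested, 5 rose and 6 fell, against 10.4 and 3.82% of all genes. *Snhg15* rose from 54.6 and 54.1 to 247 and 218 normalized CPM (log2 2.09 ± 0.08), *Snhg17* by 1.79, *Snhg1* by 1.44 and *Zfas1* by 1.38. *Dancr* fell from 16.2 and 17.4 to 2.19 and 2.61 (log2 −2.69 ± 0.15), and *Snhg20* by 1.76. For 0 of the 20 was the log2 fold change higher in *Nrde2*-KO than in WT cells, against 48.0% of all genes, though none of the differences had an adjusted p below 0.05. *Gas5*, a standard example of the class, had a log2 fold change of 0.01. Of the nuclear long noncoding RNAs, *Tsix* (−1.86), *Kcnq1ot1* (−1.41) and the paraspeckle RNA *Neat1* (−1.18) fell, and *Ftx* (1.46) and *Pvt1* (1.10) rose.

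Gene class in the annotation also separated the directions. Of 332 long intergenic noncoding RNA genes, 24.1% rose and 7.23% fell. Of 290 genes of the class TEC, which are transcribed regions without a settled gene model, 5.52% rose and 30.7% fell. The decreases of this class lay mainly in genes contained within a protein-coding gene of the same strand, where 73 of 192 fell and 0 rose (median −0.83), against 16 falling and 16 rising of 98 elsewhere. Sense intronic genes were similar, with 15 of 40 falling and 1 rising. Reads from introns of the surrounding pre-mRNA are counted to such genes, so their level cannot be told apart from that of the unspliced host. Of 71 snoRNA genes 19 fell and 0 rose, and of 17 microRNA genes 10 fell and 0 rose, against 3.82 and 10.4% of all genes. Of the snoRNA genes, 57 lay within a protein-coding gene of the same strand, where 13 fell, and 6 of the 14 elsewhere fell. Reads of a host transcript can be counted to both classes, so a change of the small RNA cannot be told apart from that of its host.

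The question that the WT libraries answer is where *Nrde2*-KO cells responded differently. In WT cells 1646 of the same 15338 genes rose (10.7%) and 474 fell (3.09%). The 1245 genes that rose in both made up 78.1% of those of *Nrde2*-KO and 75.6% of those of WT cells, and the 299 that fell in both made up 51.0 and 63.1%. The number that rose in 1 genotype and fell in the other was 0. The responses share no library, and their Pearson correlation across genes, which are not independent, was 0.90. Genes that rose in *Nrde2*-KO cells had a median of 1.46 there and 1.38 in WT cells, and genes that fell had −1.23 and −1.03, a comparison that favours the *Nrde2*-KO values because they chose the genes. Chosen by the WT values instead, the medians were 1.38 and 1.44 for increases and −1.17 and −1.29 for decreases.

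The difference itself was past the thresholds for 8 of the 15338 genes (0.0522%), 6 with the higher log2 fold change in *Nrde2*-KO cells and 2 with the lower one. An unadjusted p below 0.05 was reached by 2217 genes and an adjusted p below 0.05, without a limit on size, by 197, of which 144 were on the higher side. These counts depended on the libraries: the 8 became 1 without the untreated *Nrde2*-KO replicate 2 and 23 without the untreated *Nrde2*-KO replicate 1. They also depended on the model, with 121 genes (71 higher and 50 lower) when the replicate number was added as a block and 54 (34 higher and 20 lower) by DESeq2.

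**Figure D3:**
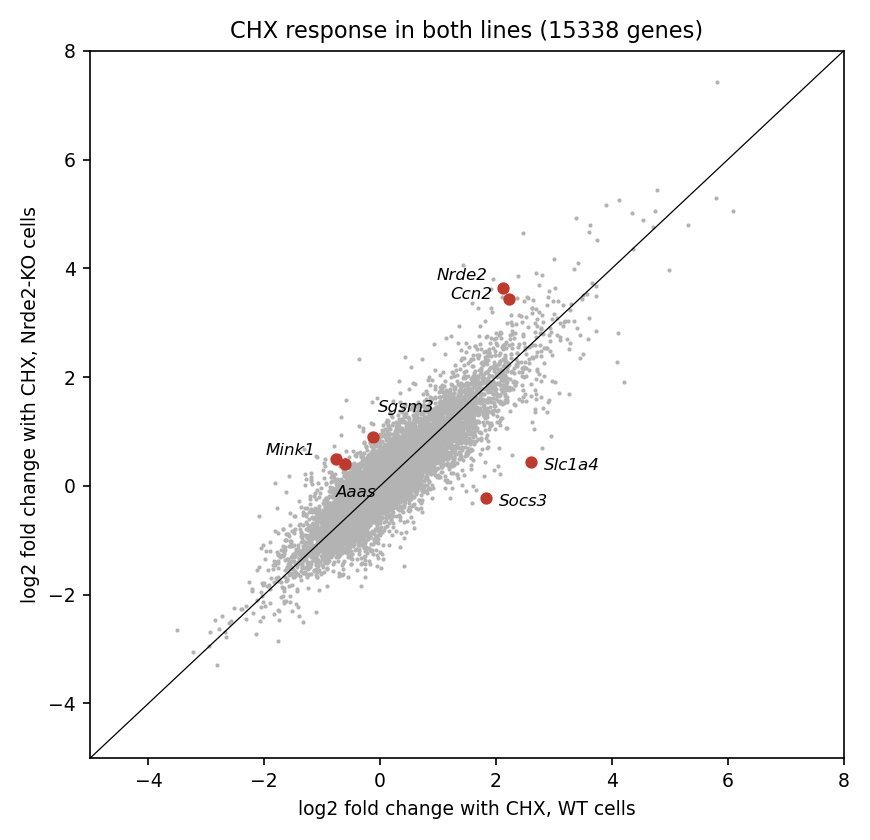
Log2 fold change with CHX in *Nrde2*-KO cells (vertical axis) against that in WT cells (horizontal axis), 1 grey point per tested gene, with the line of equal response. Red points are 7 of the genes whose response differed; *Slc1a4* and *Socs3* lie below the line and the other 5 above it.

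After *Nrde2*, the kinase gene *Mink1*, the nuclear pore gene *Aaas* and the Rab GTPase regulator gene *Sgsm3* shared a pattern. *Mink1* went from 15.5 and 13.5 to 21.4 and 19.4 normalized CPM in *Nrde2*-KO and from 32.2 and 32.5 to 17.9 and 20.1 in WT cells, a difference of 1.25 ± 0.15 (adjusted p = 0.0067). The WT and *Nrde2*-KO libraries of *Mink1* were separate without CHX and overlapped with it.

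For *Aaas* the difference was 1.02 ± 0.10 (adjusted p = 0.0024), with 54.5 and 51.7 becoming 73.6 and 67.6 in *Nrde2*-KO and 101 and 96.8 becoming 65.4 and 63.7 in WT cells. For *Sgsm3* it was 1.02 ± 0.13 (adjusted p = 0.0079), with 13.3 and 11.9 becoming 23.9 and 23.4 in *Nrde2*-KO cells against a WT level between 28.1 and 31.0 in all 4 libraries. In all 3 genes the untreated *Nrde2*-KO level was below the untreated WT level, by 1.15 (*Mink1*), 0.89 (*Aaas*) and 1.28 (*Sgsm3*) on the log2 scale, and the gap was smaller with CHX. In the separate untreated experiment described below, the differences from WT were −0.75, −0.72 and −1.05, and only that of *Sgsm3* passed the thresholds. The genes were chosen for a higher response in the libraries of the CHX experiment, which favours this pattern there. *Ccn2* differed from this pattern, with a response larger by 1.22 ± 0.12 (adjusted p = 0.0018) from an untreated level above that of WT. The WT libraries of *Ccn2* were at 22.8 and 26.0 untreated and at 113 and 116 with CHX.

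The genes with the weaker response in *Nrde2*-KO cells were *Slc1a4*, which encodes a neutral amino acid transporter, and *Socs3*, an inhibitor of the JAK-STAT3 signalling that LIF activates. *Slc1a4* went from 7.93 and 8.40 to 10.1 and 12.3 in *Nrde2*-KO and from 4.83 and 5.73 to 35.7 and 30.9 in WT cells, a difference of −2.16 ± 0.20 (adjusted p = 0.0018). Its untreated *Nrde2*-KO level was above WT here, by 0.61 on the log2 scale. In the separate untreated experiment described below it was on the other side of WT (log2 −0.89, short of the thresholds), so this baseline was not reproduced. *Socs3* was at 70.3 and 64.2 untreated and 64.1 and 51.4 with CHX in *Nrde2*-KO cells, and rose from 99.7 and 97.5 to 429 and 289 in WT cells, a difference of −2.06 ± 0.22 (adjusted p = 0.0028). Both CHX-treated *Nrde2*-KO libraries lay below both CHX-treated WT libraries for these genes.

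**Figure D4:**
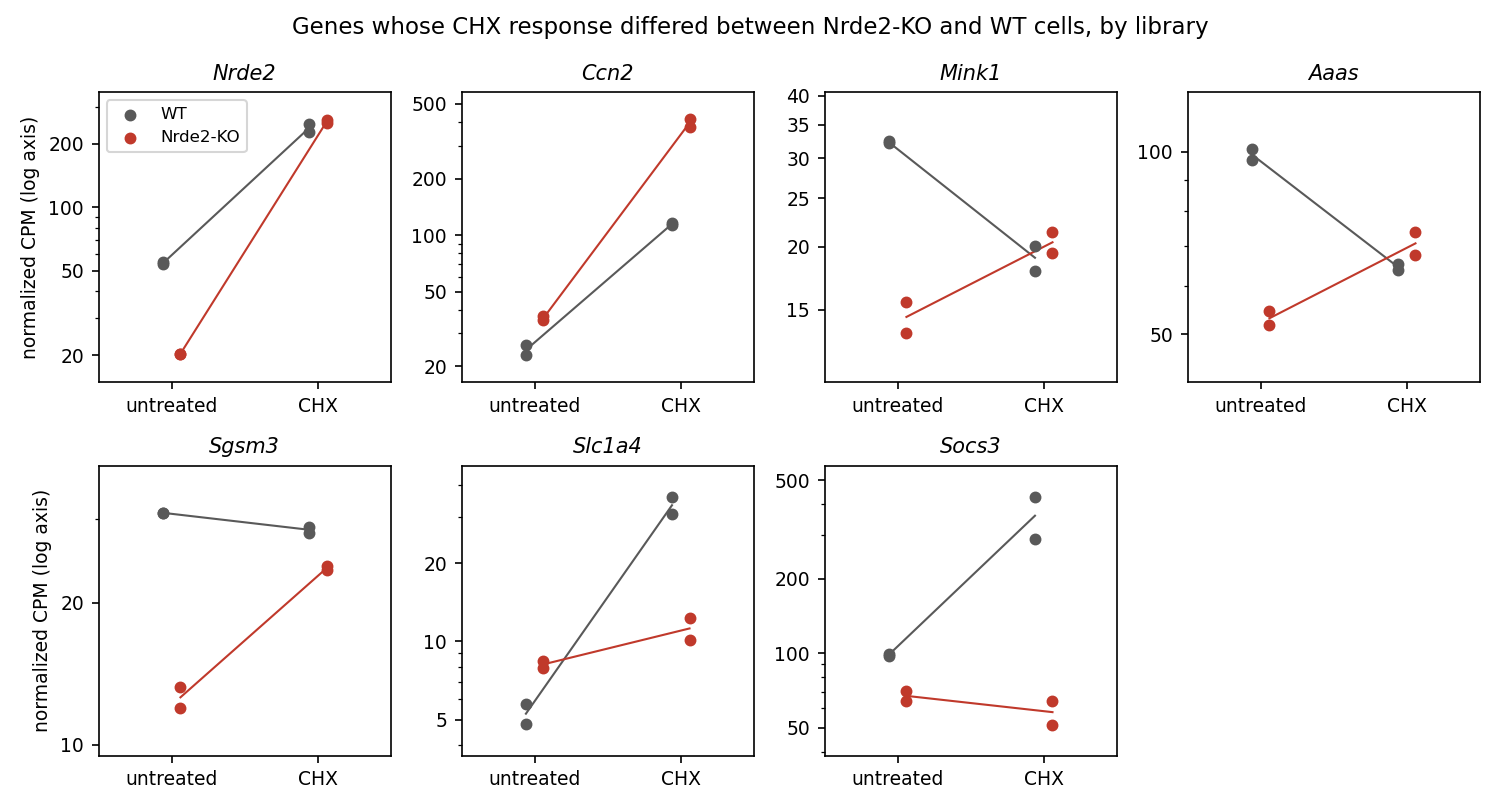
Normalized CPM (log axis) of 7 genes whose CHX response differed, in each of the 2 untreated and 2 CHX libraries of WT (grey) and *Nrde2*-KO cells (red), with lines joining the group means. With CHX, *Nrde2*, *Mink1* and *Aaas* come close to the WT level, and *Slc1a4* and *Socs3* lie below it.

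The log2 fold change was higher in *Nrde2*-KO than in WT cells for 18 of 28 immediate early transcription factors, 22 of 36 feedback genes and 5 of 19 NF-kB targets, against 48.0% of all genes. Several genes of these kinds fell short of the threshold for a difference, in both directions. *Gadd45g* had a difference of −1.04 (adjusted p = 0.21 by limma) and *Dusp14*, another dual-specificity phosphatase gene, of −0.72 (adjusted p = 0.037 by limma). *Egr1* had a response larger by 1.61 in *Nrde2*-KO cells (adjusted p = 0.037), *Ptgs2* by 1.54 (adjusted p = 0.027), *Dusp8* by 2.63 (adjusted p = 0.015) and *Ccn1* by 1.27 (adjusted p = 0.011), all by limma. Untreated *Egr1* was at 0.0906 and 0.124 normalized CPM in WT and at 0.286 and 0.545 in *Nrde2*-KO cells. The added 0.25 thus shrinks its WT response more, and the ratio of its means was 272 in *Nrde2*-KO and 187 in WT cells. These ratios were 36.6 and 12.9 for *Ptgs2* and 37.2 and 4.30 for *Dusp8*. *Tti1*, a gene that the study examined for mis-splicing, passed on p (adjusted p = 0.0087) but not on size, with a difference of 0.81 ± 0.11. In *Nrde2*-KO cells its level was 30.3 and 28.6 normalized CPM untreated and 46.8 and 49.0 with CHX, a log2 fold change of 0.70, short of the threshold on size. It was between 78.5 and 88.9 in the 4 WT libraries. *Cdk2* (−0.19, adjusted p = 0.54) and *Dnmt1* (0.24, adjusted p = 0.31), which the study also examined, had small differences that did not pass.

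A separate experiment of the series compared untreated *Nrde2*-KO with untreated WT cells in other libraries, and these can choose genes without using the values described here. Of the 14809 genes tested there, 338 were lower (2.28%) and 464 higher (3.13%) in *Nrde2*-KO cells at the same thresholds, and 330 and 452 of them were among the 15338. This comparison was added after the data were seen. The 330 lower genes had a median CHX response of 0.09 in *Nrde2*-KO and −0.17 in WT cells. For 268 of them (81.2%) the log2 fold change was higher in *Nrde2*-KO cells, against 48.0% of all genes, with a median difference of 0.28, against −0.01. Their level relative to WT was −1.20 (median, log2) without and −0.91 with CHX in the libraries described here. Of these genes, 11.8% rose and 2.42% fell in *Nrde2*-KO cells, against 10.4 and 3.82% of all genes. The 452 higher genes had a median difference of −0.15, with 37.6% above 0, and 12.6% of them rose and 10.4% fell. Their level relative to WT was 1.13 without and 1.0 with CHX. The *Nrde2*-KO and WT medians were nearer to each other with CHX in both sets, and the larger part of the difference was present with it.

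**Figure D5:**
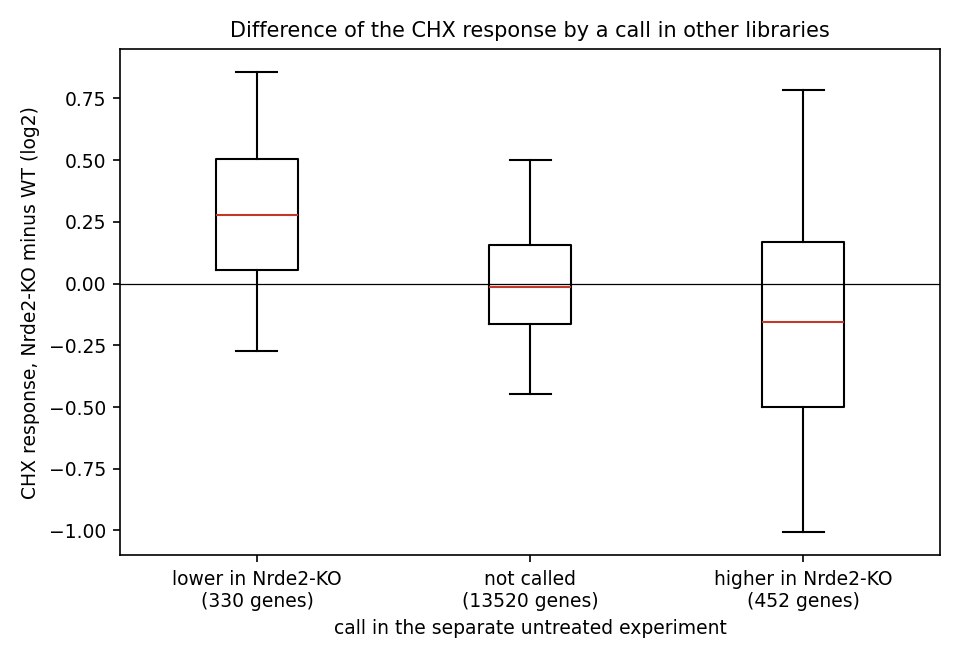
Difference of the log2 CHX response, *Nrde2*-KO minus WT, for genes that were lower in, not called in or higher in *Nrde2*-KO cells in a separate untreated experiment. Boxes span the quartiles, red lines are medians (0.28, −0.02 and −0.15) and whiskers reach from the 5th to the 95th percentile of the genes.

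CHX was also given to another pair of lines of the series, mESCs with a degradable CCDC174 (*Ccdc174-dTAG*) without (labelled WT) and with the degrader dTAG-13 (500 nM for 24 h). Its libraries are separate from those of *Nrde2*-KO cells. In a fit of all 16 libraries, the 1594 genes that rose in *Nrde2*-KO cells had median log2 fold changes of 1.46 there, 1.40 in WT cells of the same experiment, 1.49 in *Ccdc174-dTAG* cells without and 1.45 with dTAG-13. At least 99.6% of them were positive in each of these lines. The 586 genes that fell reached a median of −1.24 in *Nrde2*-KO cells, −1.02 in WT cells, −1.0 in *Ccdc174-dTAG* cells without and −1.04 with dTAG-13, and at least 96.9% of them were negative in each line.

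The same fit gave the genes that differed in *Nrde2*-KO cells. *Mink1* had a CHX response of 0.49 in *Nrde2*-KO cells, −0.74 in their WT, −0.56 in *Ccdc174-dTAG* cells without and 0.53 with dTAG-13. *Aaas* (0.41, −0.60, −0.65 and 0.34) and *Sgsm3* (0.90, −0.10, −0.06 and 0.71) gave the same signs, negative in both unperturbed lines and positive in *Nrde2*-KO and in CCDC174-depleted cells. For *Tti1* these values were 0.70, −0.10, −0.06 and 0.75. Not all genes gave this order. The response was highest in *Nrde2*-KO and lowest in dTAG-13-treated cells for *Egr1* (7.44, 5.83, 5.53 and 3.49), *Egr2* (4.68, 2.48, 2.86 and 1.63) and *Ptgs2* (4.93 and 2.10 in these), while *Dusp8* gave 4.09 in *Nrde2*-KO cells and 1.45, 1.55 and 1.75 in the others. Untreated levels of *Egr1*, *Egr2* and *Dusp8* were at most 0.545 normalized CPM in the *Nrde2*-KO and WT libraries. There the added 0.25 makes fold changes smaller, so the sizes of these responses are uncertain. *Nrde2* itself did not follow, with 3.63 in *Nrde2*-KO cells and between 1.94 and 2.13 in the other 3, and neither did *Ccn2*, with 3.45 against 2.24 to 2.49. *Socs3* (−0.22, 1.85, 2.65 and 0.97) and *Slc1a4* (0.44, 2.62, 2.58 and 1.01) were lowest in *Nrde2*-KO cells, next in dTAG-13-treated cells and highest in the unperturbed lines. These are descriptions, since the genes were chosen for their difference between *Nrde2*-KO and WT cells, and the differences within the *Ccdc174-dTAG* pair were not tested.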

How the data were processed

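RNA of the 8 libraries of the *Nrde2* CHX experiment was sequenced as stranded, ribosomal RNA-depleted, 50-nt single-end libraries. The authors aligned reads with STAR to mm10, assigned unique reads to GENCODE genes with featureCounts, and the deposited values are CPM. All columns of the deposited table matched a sample. Divided by what 1 read is worth in their library, 100% of CPM came out whole to within 0.1, and these recovered reads were used for edgeR 4.0.16, which called 2434 genes, and DESeq2 1.42.0, which called 2128.

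CPM were divided by median-of-ratios factors, 0.25 was added, and log2 values were fitted with limma 3.58.1 (R 4.3.3; trended empirical Bayes) over the 8 libraries, with Benjamini-Hochberg adjustment over 15338 genes. Fold changes of low genes are understated on this scale. The scripts were tested on simulated data. Counting error at these depths mainly limits genes near 0.5 CPM. The separate untreated experiment was fitted alike, in 8 libraries that included the NRDE2Δ200 and NRDE2-D174R lines.

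Genes were placed with GENCODE M21 (GRCm38), which holds 55154 of the identifiers; 181 are not in it. The choice of genes and lists was made with earlier results of these data known. Genes named are *Nrde2*, *Mtrex*, *Ccdc174*, *Cdk2*, *Dnmt1* and *Tti1*, the 12 largest changes in each direction among genes of at least 1 normalized CPM with separate groups, the 3 largest changes and defining members of each list, and genes past the thresholds for a difference from WT. Others near that threshold were picked after their values were seen. Sequences are from GENCODE M21 transcripts. Alternatives were other pseudocounts, scalings, level minimums, sets of libraries, the replicate block, edgeR and DESeq2, and leaving out each library. Of the genes past the thresholds for a difference, 1 is not reported here. Ribo-seq and BCLIP-seq data were not used here.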

Additional observations from a re-analysis of the deposited data

Results flagged for a closer look

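These 7 results stood out because the CHX response of *Nrde2*-KO cells differed from that of WT cells by a test of the difference itself (limma, adjusted p below 0.01, n = 2 libraries per group). The difference in log2 fold change was 1.51 for *Nrde2*, 1.25 for *Mink1*, 1.22 for *Ccn2*, 1.02 for *Aaas* and 1.02 for *Sgsm3*, and it was −2.16 for *Slc1a4* and −2.06 for *Socs3*. *Nrde2* was past the thresholds under all 17 alternatives, *Slc1a4* under 15, *Socs3* and *Ccn2* under 13, *Aaas* and *Mink1* under 9 and *Sgsm3* under 7. The smallest and the largest difference over the alternatives had the same sign for each of the 7 genes. Leaving out 1 library ended the call of *Slc1a4* for WT CHX replicate 1 and untreated *Nrde2*-KO replicate 2, and that of *Socs3* for both untreated WT replicates, untreated *Nrde2*-KO replicate 2 and *Nrde2*-KO CHX replicate 2. It ended that of *Ccn2* for both WT CHX replicates, untreated *Nrde2*-KO replicate 2 and *Nrde2*-KO CHX replicate 1. For *Mink1*, *Aaas* and *Sgsm3* it did so for each library but untreated *Nrde2*-KO replicate 1.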

How the results depend on the processing

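The CHX response of *Nrde2*-KO cells comprised 2180 genes and between 1961 (without CHX replicate 1) and 2254 (without untreated replicate 1) when 1 library was left out. It was 1383 with a pseudocount of 1 and between 1767 and 2586 under the other alternatives. Increases were 73.1% of the calls, and 87.2% with the CPM as deposited. Of 71 named genes that passed, 61 passed under every alternative, and 10 were lost under at least 1. The 10 lost were *Atf5*, *Hspa1b*, *Hspd1*, *Cdkn1a*, *Hnrnpa3*, *mt-Nd1*, *mt-Nd2*, *Lefty1*, *Rnf43* and *Sox17*, none of which changed direction. Of these, leaving out untreated *Nrde2*-KO replicate 1 ended the calls of *Atf5* and *Hspa1b*, replicate 2 those of *Hnrnpa3*, *Lefty1* and *Rnf43*, CHX replicate 1 those of *Atf5* and *Rnf43*, and CHX replicate 2 those of *Hspa1b*, *Cdkn1a*, *mt-Nd1* and *mt-Nd2*.

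The number of genes whose response differed from WT was less stable. It was 8, against 16 with a pseudocount of 1, 5 with the CPM as deposited, 21 with all 16 libraries in the fit and 54 with DESeq2. Leaving out 1 library gave between 1 (without untreated *Nrde2*-KO replicate 2) and 23 (without untreated *Nrde2*-KO replicate 1), and 2 or 3 for each of the other 6 libraries, whose groups then had 1 library assumed to vary like the rest. With the replicate block it was 121, while the CHX response gave 2210. Deviations of same-numbered libraries correlated between 0.115 and 0.353 over the 6 pairs of groups. The labels do not say whether equal numbers mark a shared preparation, and this was not tested. Depth limits the genes near 0.5 CPM, and 2 libraries per group limit all differences. The causes of these shifts were not tested.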
